A study of Mus musculus with 9 samples.

Results

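The MHC class I and peptide processing genes examined here are 10 mouse genes, H2-K1, H2-D1, B2m, Tap1, Tap2, Tapbp, Psmb8, Psmb9, Psmb10 and Nlrc5. They were taken by symbol, through the Entrez IDs, from a table of 28059 genes. All 10 were found, and all 10 were among the 12568 genes with at least 1 RPKM in at least 3 libraries, which were the genes tested. RPKM scales reads to the length of a gene, in kilobases, and to the depth of its library. In the gene order of the reference, 7 of the 10 lie inside the H2 locus on chromosome 17 (H2-K1, H2-D1, Tap1, Tap2, Tapbp, Psmb8 and Psmb9) and 3 lie elsewhere (B2m on chromosome 2, Psmb10 and Nlrc5 on chromosome 8). RNA was sequenced from YAMC cells, a mouse intestinal line, in 3 groups of 3 libraries: Cdk8 -/- knockout clone 19, Cdk8 -/- knockout clone 1, both made with CRISPR, and the parental line, labelled wildtype. All cells were grown at 32 °C and harvested in logarithmic growth. Each knockout group is 1 clone, and without a clone that kept Cdk8, effects of losing the kinase and of picking a clone cannot be told apart. As background, YAMC cells carry a temperature-sensitive large T antigen transgene driven by the interferon-inducible promoter of a class I heavy chain gene of the H2-K locus. The labels do not say whether interferon gamma was in the medium.

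As background, MHC class I molecules display peptides from inside the cell to CD8 T cells. A heavy chain (H2-K1 or H2-D1) pairs with beta-2 microglobulin (B2m) and takes up a peptide in the endoplasmic reticulum. Those peptides are cut by proteasomes, in which interferon-induced immunosubunits (Psmb8, Psmb9, Psmb10) can take the place of constitutive catalytic subunits. The transporter made of Tap1 and Tap2 then carries them across the membrane, and tapasin (Tapbp) holds an empty class I molecule at the transporter. Nlrc5 is the transactivator that drives transcription of most of these genes. Many of them sit close together in the H2 locus, so a change shared by neighbouring genes can include them.

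Promoter windows, of 250 bases before to 50 after a start site, were at hand for 8 of the 10 genes (RefSeq, GRCm38.p6) and are shown for 4 of them. The pair H2-K1 and H2-D1 is shown because both heavy chains rose in one clone and fell in the other, which Tap1, Tapbp and Psmb8 also did. B2m and Tap1 are shown as a partner outside and a partner inside the locus. Capitals mark matches, on either strand, to GAANNGAAA (an interferon response core) and to 2 spacings of a kappa B site, GGGNNTTCC and the same letters with 1 more N. The H2-K1 window is chr17:34000298-34000597 on the minus strand, the first of 2 entries. The H2-D1 window is chr17:35262844-35263143, B2m chr2:122147437-122147736 and Tap1 chr17:34187306-34187605, each on the plus strand.
H2-K1: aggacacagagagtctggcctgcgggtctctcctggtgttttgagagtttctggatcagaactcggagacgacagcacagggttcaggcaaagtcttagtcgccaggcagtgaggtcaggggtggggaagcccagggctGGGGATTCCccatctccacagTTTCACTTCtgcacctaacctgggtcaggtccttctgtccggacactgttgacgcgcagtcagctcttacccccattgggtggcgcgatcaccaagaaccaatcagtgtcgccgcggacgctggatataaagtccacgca
H2-D1: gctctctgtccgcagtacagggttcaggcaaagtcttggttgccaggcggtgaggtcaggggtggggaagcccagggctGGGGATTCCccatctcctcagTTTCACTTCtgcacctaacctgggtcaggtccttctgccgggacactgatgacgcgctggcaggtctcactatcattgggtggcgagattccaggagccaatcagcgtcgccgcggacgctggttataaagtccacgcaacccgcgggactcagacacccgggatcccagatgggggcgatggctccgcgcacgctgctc
B2m: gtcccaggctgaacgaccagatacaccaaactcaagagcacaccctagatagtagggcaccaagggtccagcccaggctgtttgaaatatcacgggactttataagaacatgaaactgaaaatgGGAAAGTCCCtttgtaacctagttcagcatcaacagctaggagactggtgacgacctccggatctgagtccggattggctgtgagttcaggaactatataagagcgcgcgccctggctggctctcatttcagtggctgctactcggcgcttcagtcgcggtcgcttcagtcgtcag
Tap1: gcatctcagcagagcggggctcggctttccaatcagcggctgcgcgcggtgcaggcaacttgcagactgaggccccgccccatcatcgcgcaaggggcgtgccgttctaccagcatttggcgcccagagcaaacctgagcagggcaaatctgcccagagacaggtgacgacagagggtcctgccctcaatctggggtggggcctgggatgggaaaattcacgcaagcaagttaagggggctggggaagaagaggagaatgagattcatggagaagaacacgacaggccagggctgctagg
The interferon response core stood in the windows of H2-K1 and H2-D1 and in none of the other 6 windows searched, against 7.52% of 32851 mouse promoter windows of this length. GGGNNTTCC stood in the same 2 windows (5.82% of all windows) and the longer spacing in that of B2m alone (5.56%). All motifs were searched on both strands. The interferon response core was searched in the spacing given above and in no other. The B2m window holds gaaactgaaa, where the gap between GAA and GAAA is longer. That run was not counted, so the search does not show that B2m lacks an interferon response element. The capitalized matches do not overlap each other. The gamma activation core TTCNNNGAA matched only in Psmb8 (8.30%), the CRE core TGACG in 5 of the 8 windows (20.8%) and the Y box ATTGG in 6 (37.4%). The windows of Tap1 and Psmb9, which lie head to head, overlap by 275 bases. A match is a run of letters, not a site shown to be bound, and no match says only that these letters are not in the window.

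Depth, estimated from the size of 1 read in genes with low values, ran from 22.9 to 43.3 megareads per library, and every one of the 10 genes rested on an estimated 4641 reads or more in every library. Cdk8 RNA averaged 10.4 ± 0.157 RPKM in clone 19, 11.0 ± 0.658 RPKM in clone 1 and 17.6 ± 0.125 RPKM in parental cells (SD, n = 3 each). It fell by 0.74 and 0.66 on the log2 scale (adjusted p = 3.5e-08 and 7.6e-08, limma) and was not absent, and RNA per gene does not show which part was edited. Of 14 intestinal epithelial markers only 4 were tested (Krt8, Krt18, Krt19 and Cdh1), while Epcam, Vil1, Cdx1 and Cdx2 were under 1 RPKM in every library. The labelled small intestine is thus not borne out by these low markers, and the list does not tell small intestine from other parts of the gut. The summed level of these 14 markers was 969 to 976 RPKM in clone 19, 986 to 1036 RPKM in clone 1 and 614 to 632 RPKM in parental cells. Nearly all of that sum came from Krt8, Krt18 and Krt19. Of 10 haematopoietic markers, whose cells are rich in MHC molecules, 9 stayed under 1 RPKM in every library of every group, and the list summed to 1.71 to 1.89 RPKM in clone 19, 1.71 to 2.09 RPKM in clone 1 and 2.59 to 2.91 RPKM in parental cells. The epithelial markers Krt8, Krt18 and Krt19, keratins of simple epithelia, rose by 0.57 to 0.85 in clone 19 and by 0.65 to 0.78 in clone 1. Cdh1 (E-cadherin) reached 1 RPKM in clone 19 alone, so it was tested only through that group. It averaged 1.25 ± 0.123 RPKM there, 0.521 ± 0.115 RPKM in clone 1 and 0.549 ± 0.0870 RPKM in parental cells. Its log2 fold change of 0.74 in clone 19 is thus a description only. The summed level of 9 fibroblast markers was 1412 to 1478 RPKM in clone 19, 1653 to 1692 RPKM in clone 1 and 1824 to 1887 RPKM in parental cells. They did not move one way: of 8 tested, 2 rose and 6 fell in clone 19, while 3 rose and 5 fell in clone 1. Of all tested genes 36.7% rose and 32.3% fell in clone 19, and 39.8% and 32.6% in clone 1. Dcn (decorin) rose to 105 ± 4.63 RPKM in clone 19 and 84.5 ± 1.39 RPKM in clone 1, against 47.2 ± 1.39 RPKM in parental cells. Col1a1 (a collagen I chain) fell to 151 ± 5.20 RPKM in clone 19 and 195 ± 3.41 RPKM in clone 1, against 375 ± 14.0 RPKM in parental cells. The growth factor receptors Pdgfra and Pdgfrb fell as well, with log2 fold changes of -0.77 and -1.01 in clone 19, and of -1.06 and -0.42 in clone 1. The part of epithelial and fibroblast markers in the results below was not tested, and in bulk RNA fewer cells of a type and less RNA per cell cannot be told apart.

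Both classical heavy chains rose in clone 19 and fell in clone 1, each against parental cells. H2-K1 stood at 1022, 969 and 983 RPKM in clone 19, at 678, 706 and 675 RPKM in clone 1, and at 771, 795 and 774 RPKM in parental cells. The 3 groups did not overlap, with clone 19 highest and clone 1 lowest. The log2 fold change of H2-K1 was 0.35 ± 0.024 in clone 19 (SE, n = 3 against 3, adjusted p = 2.7e-07, limma) and -0.18 ± 0.024 in clone 1 (adjusted p = 4.1e-05, limma). H2-D1 stood at 697, 669 and 671 RPKM in clone 19, at 493, 504 and 493 RPKM in clone 1, and at 591, 597 and 588 RPKM in parental cells. Its groups were again apart and in the same order. The change of H2-D1 was 0.20 ± 0.019 in clone 19 (adjusted p = 3.7e-06, limma) and -0.25 ± 0.019 in clone 1 (adjusted p = 4.1e-07, limma). Between the clones the heavy chains differed by 0.53 ± 0.024 for H2-K1 and 0.45 ± 0.019 for H2-D1 (clone 19 minus clone 1, adjusted p = 1.7e-07 and 1.2e-07, limma), the 2 largest differences between clones among the 10 genes. Of the 50-base words in H2-K1 transcripts 9.63% also occur in transcripts of other genes, and 12.8% of those in H2-D1, so a small part of their reads could belong to related class I genes. The class I alleles of these cells are not given in the labels, and reads from alleles that differ from the reference can be lost or placed on a related gene.

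B2m, the light chain shared by all these heavy chains, was the gene with the highest RPKM of all in every clone 19 and parental library and ranked 3 in every clone 1 library. It stood at 2258, 2201 and 2269.9 RPKM in clone 19, at 1978, 2002 and 2011 RPKM in clone 1, and at 1987, 1999.8 and 1983 RPKM in parental cells. Clone 19 was above both other groups, while the clone 1 and parental libraries overlapped. B2m rose in clone 19 by 0.17 ± 0.016 on the log2 scale (adjusted p = 2.2e-06, limma) but in clone 1 it missed the threshold (0.01 ± 0.016, adjusted p = 0.77, limma). With median-ratio scaling the change of B2m in clone 19 was 0.15 (adjusted p = 6.9e-06, limma). Quantile normalization gives the highest gene of every library the same value, so it fixes the change of B2m in clone 19 at 0.00 and does not test it, and the value it gave in clone 1, -0.19, rests on rank alone. In clone 1, then, both heavy chains fell while their light chain did not pass the test.

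**Figure D1:**
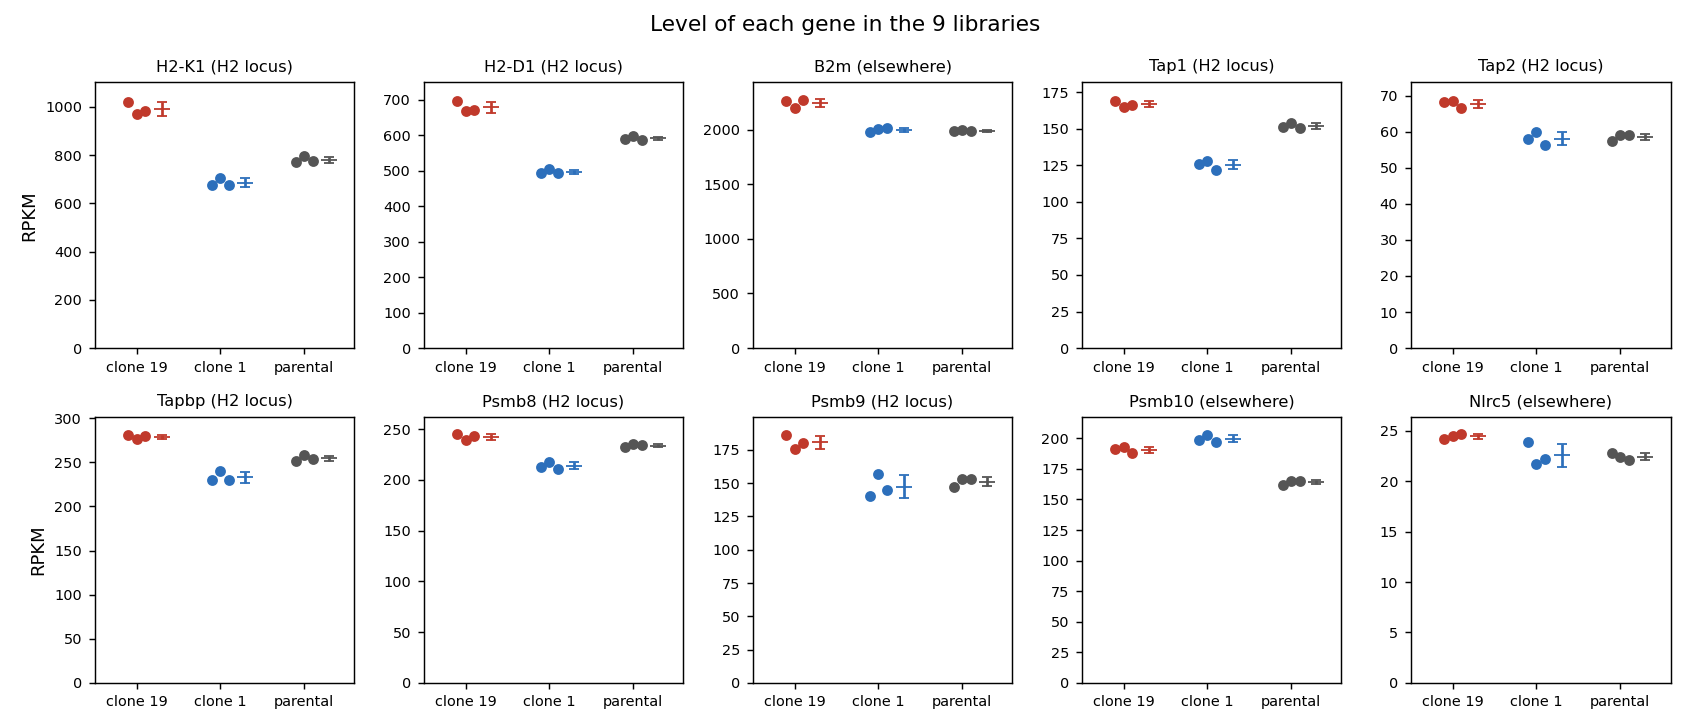
Level in RPKM (vertical axis, from 0) of each of the 10 genes in the 3 libraries of clone 19, clone 1 and parental cells (points), with the mean and SD of each group beside them. All 10 genes, inside the H2 locus and elsewhere, have all clone 19 points above all parental points. Psmb10 is the gene in which both clones lie above parental cells.

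Of the peptide transport genes, Tap1 rose in clone 19 and fell in clone 1, while Tap2 rose in clone 19 alone by the test against parental cells. Tap1, one subunit of the transporter, stood at 169, 165 and 166 RPKM in clone 19, at 126, 128 and 122 RPKM in clone 1, and at 151, 154 and 150.5 RPKM in parental cells. It rose in clone 19 (0.13 ± 0.021, adjusted p = 1.9e-04, limma) and fell in clone 1 (-0.27 ± 0.021, adjusted p = 4.5e-07, limma), with no overlap between groups. Tap2, its partner subunit, stood at 68.3, 68.5 and 66.5 RPKM in clone 19, at 57.9, 59.9 and 56.4 RPKM in clone 1, and at 57.4, 59.0 and 59.1 RPKM in parental cells. Its clone 1 libraries overlapped the parental ones, and its clone 19 libraries were above both. Tap2 rose in clone 19 (0.21 ± 0.026, adjusted p = 2.4e-05, limma) but in clone 1 it missed the threshold (-0.01 ± 0.026, adjusted p = 0.71, limma). Per kilobase, Tap2 was thus the lower of the transporter subunits in every library.

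Tapbp, the tapasin gene at the start of the locus, stood at 281, 276 and 279.9 RPKM in clone 19, at 229.5, 240.1 and 229.8 RPKM in clone 1, and at 252, 258 and 254 RPKM in parental cells. The groups were apart in the order of the heavy chains. The change was 0.13 ± 0.020 in clone 19 (adjusted p = 1.6e-04, limma) and -0.13 ± 0.020 in clone 1 (adjusted p = 1.8e-04, limma).

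The 3 immunosubunits each had a pattern of their own. Psmb9, which lies head to head with Tap1, stood at 186, 176 and 180.2 RPKM in clone 19, at 140.5, 157 and 145 RPKM in clone 1, and at 147, 153 and 153 RPKM in parental cells. It rose in clone 19 (0.26 ± 0.038, adjusted p = 1.2e-04, limma) and overlapped parental cells in clone 1 (-0.04 ± 0.038, adjusted p = 0.41, limma). Without clone 1 replicate 2, its highest clone 1 library, it was called lower there (-0.08, adjusted p = 0.028, limma). Psmb8 stood at 245, 239 and 243 RPKM in clone 19, at 213, 218 and 211 RPKM in clone 1, and at 232, 235 and 234 RPKM in parental cells. The Psmb8 groups did not overlap, but clone 19 lay only just above parental cells. Psmb8 fell in clone 1 (-0.13 ± 0.018, adjusted p = 6.6e-05, limma), and its rise in clone 19 was the smallest of the 10 (0.05 ± 0.018, adjusted p = 0.023, limma). That rise lost its call with median-ratio scaling (adjusted p = 0.13, limma), with quantile normalization (0.63), with no mean-variance trend (0.085), and without clone 19 replicate 1 (0.078), clone 19 replicate 3 (0.063), parental replicate 1 (0.078) or parental replicate 3 (0.051). Psmb10, encoded on chromosome 8, stood at 191, 193 and 188 RPKM in clone 19, at 199, 203 and 197 RPKM in clone 1, and at 162, 165 and 165 RPKM in parental cells. Of the 10 genes it was the only one called higher in both clones (by limma 0.22 ± 0.019 in clone 19, adjusted p = 1.5e-06, and 0.28 ± 0.019 in clone 1, adjusted p = 1.4e-07). It was also the only one with clone 19 below clone 1 (-0.07 ± 0.019, adjusted p = 0.014, limma). That last difference was no longer called with no mean-variance trend (adjusted p = 0.058, limma) or without clone 19 replicate 3 (0.06).

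Each immunosubunit was set against the constitutive subunit whose place it takes, as a ratio of RPKM within a library, which does not depend on how the library was scaled. Psmb8 over Psmb5 was 11.9, 12.3 and 12.6 in clone 19, 10.7, 10.7 and 11.2 in clone 1, and 11.5, 12.0 and 11.9 in parental cells. Clone 1 was below both other groups, while clone 19 overlapped parental cells. Psmb9 over Psmb6 was 1.63, 1.56 and 1.57 in clone 19, 1.32, 1.33 and 1.24 in clone 1, and 1.29, 1.33 and 1.36 in parental cells. Here clone 19 stood above the others, and clone 1 overlapped parental cells. Psmb10 over Psmb7 was 1.10, 1.11 and 1.07 in clone 19, 1.10, 1.05 and 1.02 in clone 1, and 0.784, 0.779 and 0.793 in parental cells. Both clones were above parental cells, by a log2 ratio of 0.47 in clone 19 and 0.42 in clone 1, with the clones overlapping. Psmb10 exceeded Psmb7 in all 6 clone libraries and was below it in all 3 parental ones. Psmb7 itself fell to 175 ± 0.907 RPKM in clone 19 and 189.6 ± 6.91 RPKM in clone 1, against 209 ± 3.19 RPKM in parental cells (SD, n = 3 each; -0.26 and -0.14, adjusted p = 3.6e-06 and 3.8e-04, limma). With neighbouring genes subtracted, as is done for the locus further on, Psmb7 stood at 0.00 in clone 19 (adjusted p = 0.9, limma) and was called higher in clone 1 (0.12, adjusted p = 0.0027, limma). Psmb5 and Psmb6 did not pass in either clone, with log2 fold changes between -0.01 and 0.00. With 3 libraries against 3 an exact two-sided permutation test cannot go below 0.1, which was the p of every pair of groups that did not overlap (0.150 after Benjamini-Hochberg adjustment over the 9 comparisons). The overlapping pairs had p from 0.200 to 0.5 in the same exact test.

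**Figure D2:**
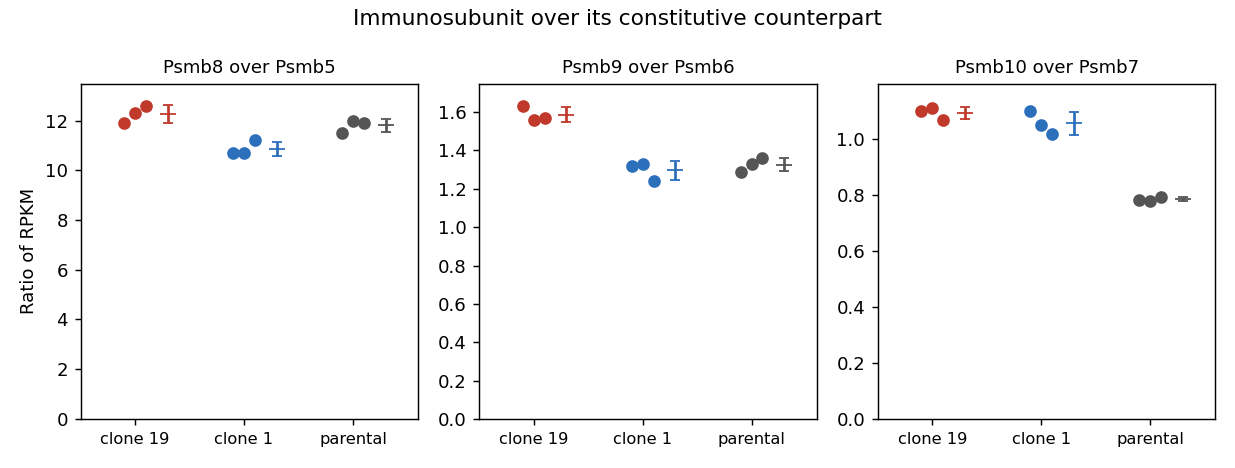
Ratio of the RPKM of each immunosubunit to that of its constitutive counterpart (vertical axis, from 0) in each library of clone 19, clone 1 and parental cells, with the group mean and SD beside the points. Psmb10 over Psmb7 is 1.02 to 1.11 in the clones and 0.779 to 0.793 in parental cells.

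Nlrc5, the class I transactivator, had the lowest level of the 10. It stood at 24.2, 24.5 and 24.7 RPKM in clone 19, at 23.9, 21.7 and 22.2 RPKM in clone 1, and at 22.8, 22.4 and 22.1 RPKM in parental cells. Clone 19 lay above all other libraries, while clone 1 replicate 1 exceeded every parental library and clone 1 replicate 2 was below every one. Nlrc5 rose in clone 19 (0.12 ± 0.034, adjusted p = 0.0076, limma) but in clone 1 it missed the threshold (0.01 ± 0.034, adjusted p = 0.82, limma). The difference between clones (0.11 ± 0.034, adjusted p = 0.02, limma) lost its call when clone 19 replicate 3 was left out (adjusted p = 0.058, limma), and likewise for clone 1 replicate 2 (0.071) and replicate 3 (0.067).

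In parental cells the order of levels per length ran from B2m (1989.7 ± 8.92 RPKM, SD, n = 3) through H2-K1 (779.7 ± 13.1), H2-D1 (592 ± 4.72), Tapbp (255 ± 2.80), Psmb8 (234 ± 1.76), Psmb10 (164 ± 2.22), Tap1 (152 ± 2.19), Psmb9 (151 ± 3.77) and Tap2 (58.5 ± 0.982) to Nlrc5 (22.4 ± 0.345). Tap1 and Psmb9 were the neighbours in that order that did not differ beyond their spread. In clone 1 Psmb9 averaged 148 ± 8.73 RPKM and Tap1 125 ± 2.90 RPKM, and Psmb10 (199.7 ± 2.72 RPKM) came close behind Psmb8 (214 ± 3.54 RPKM).

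Counted together, 10 of the 10 genes were called higher in clone 19 than in parental cells and 0 lower, where 36.7% of all tested genes were called higher and 32.3% lower, 69.0% in either direction. In clone 1, 1 was called higher and 5 lower, and 4 (B2m, Tap2, Psmb9 and Nlrc5) did not pass, where 39.8% of all tested genes were called higher and 32.6% lower, 72.4% in either direction. Between the clones, 9 were called higher in clone 19 and 1 lower, where 18.5% of all tested genes were called higher and 24.5% lower, 43.0% in either direction. The same numbers of the 10 genes had groups that did not overlap. Of all tested genes, 38.7% lay wholly above and 34.8% wholly below parental cells in clone 19, 41.4% and 33.7% in clone 1, and 22.3% and 29.2% lay above and below clone 1 in clone 19. Median log2 fold changes of the 10 genes were 0.18 in clone 19, -0.08 in clone 1 and 0.24 for clone 19 minus clone 1, beside 0.02, 0.03 and -0.02 over all tested genes. The clones share their parental libraries in the first 2 comparisons. All these changes were small, and at a threshold of at least 1.5-fold none of the 10 was called in any comparison.

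The genes were also counted by position. Of the 7 inside the H2 locus, 7 were called higher in clone 19 (median 0.20), while clone 1 had 0 called higher and 5 lower (median -0.13). The 3 elsewhere had 3 called higher in clone 19 (median 0.17), and 1 higher and 0 lower in clone 1 (median 0.01). Over all tested genes 36.7% were called higher and 32.3% lower in clone 19, and 39.8% and 32.6% in clone 1. The other genes of the locus were then described. Between Tapbp, at one end, and the last gene named H2-, the reference places 170 genes that are neither members nor on the lists used here, 79 of them tested. In clone 19, 11 of them (13.9%) were called higher and 48 (60.8%) lower, beside those 36.7% and 32.3%, with a median of -0.18. In clone 1, 2 were called higher and 67 lower, or 84.8% lower beside 32.6% over all tested genes, with a median of -0.42. Between the clones 64 of the 79 were called higher in clone 19 and 0 lower (median 0.26), beside 18.5% higher and 24.5% lower over all tested genes. Most of these neighbours were thus lower in both clones, and lower in clone 1 than in clone 19. The 7 genes had a median difference between clones of 0.29, beside that 0.26. The part of the shared shift of the locus in the changes of the 7 genes was not tested, and values with it subtracted are given below.

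Library by library, the median of these 79 genes stood -0.18, -0.18 and -0.19 from the parental mean on the log2 scale in clone 19, -0.43, -0.40 and -0.42 in clone 1, and -0.01, 0.02 and 0.00 in the parental libraries themselves. The median of the 7 class I and peptide processing genes in the locus stood at 0.22, 0.18 and 0.18 in clone 19, at -0.15, -0.10 and -0.15 in clone 1, and at -0.01, 0.02 and 0.00 in parental cells. In each of the 6 clone libraries the median of the 7 genes was above that of the rest of their locus. Beyond the locus, 478 other tested genes of chromosome 17 had medians of -0.11 in clone 19 and -0.25 in clone 1. On chromosome 8, home of Psmb10 and Nlrc5, medians were 0.06 and 0.05, and on chromosome 2, home of B2m, they were -0.09 and -0.08.

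**Figure D3:**
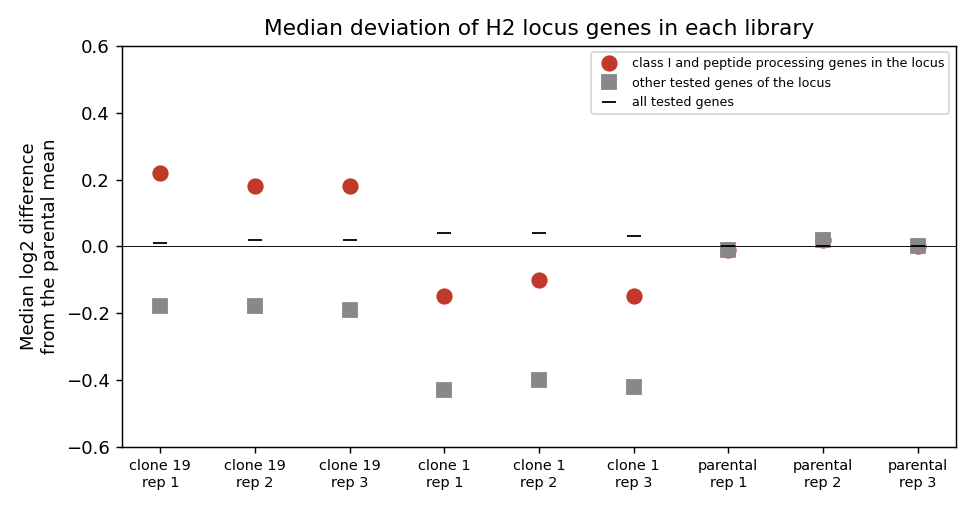
Median log2 difference from the parental mean (vertical axis) in each of the 9 libraries for the 7 class I and peptide processing genes in the H2 locus, the 79 other tested genes of the locus and all tested genes. The medians of the 7 genes lie at 0.18 to 0.22 in clone 19 and at -0.15 to -0.10 in clone 1, above those of the other genes of the locus in every clone library.

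Among these 79 other genes of the locus, the called ones with the largest changes in either clone were Cdsn, C2, Ddah2 and Gabbr1. C2, a complement component encoded between Tap2 and H2-D1, fell to 4.98 ± 0.287 RPKM in clone 19 and 1.30 ± 0.0517 RPKM in clone 1, against 10.5 ± 0.568 RPKM in parental cells (SD, n = 3 each; adjusted p = 4.5e-08 in clone 19, and 3.9e-11 with a log2 fold change of -2.61 in clone 1, limma). Ddah2, an enzyme of the dimethylarginine hydrolase family, fell by 0.80 and 1.39 on the log2 scale in clone 19 and clone 1 (adjusted p = 7.0e-08 and 9.1e-10, limma). Gabbr1, a GABA receptor subunit, fell by 0.93 and 1.34 (adjusted p = 2.6e-06 and 1.2e-07, limma). Cdsn, corneodesmosin of the stratified epidermis, fell most, with log2 fold changes of -2.91 in clone 19 and -3.59 in clone 1 (adjusted p = 4.7e-11 and 1.3e-11, limma).

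**Figure D4:**
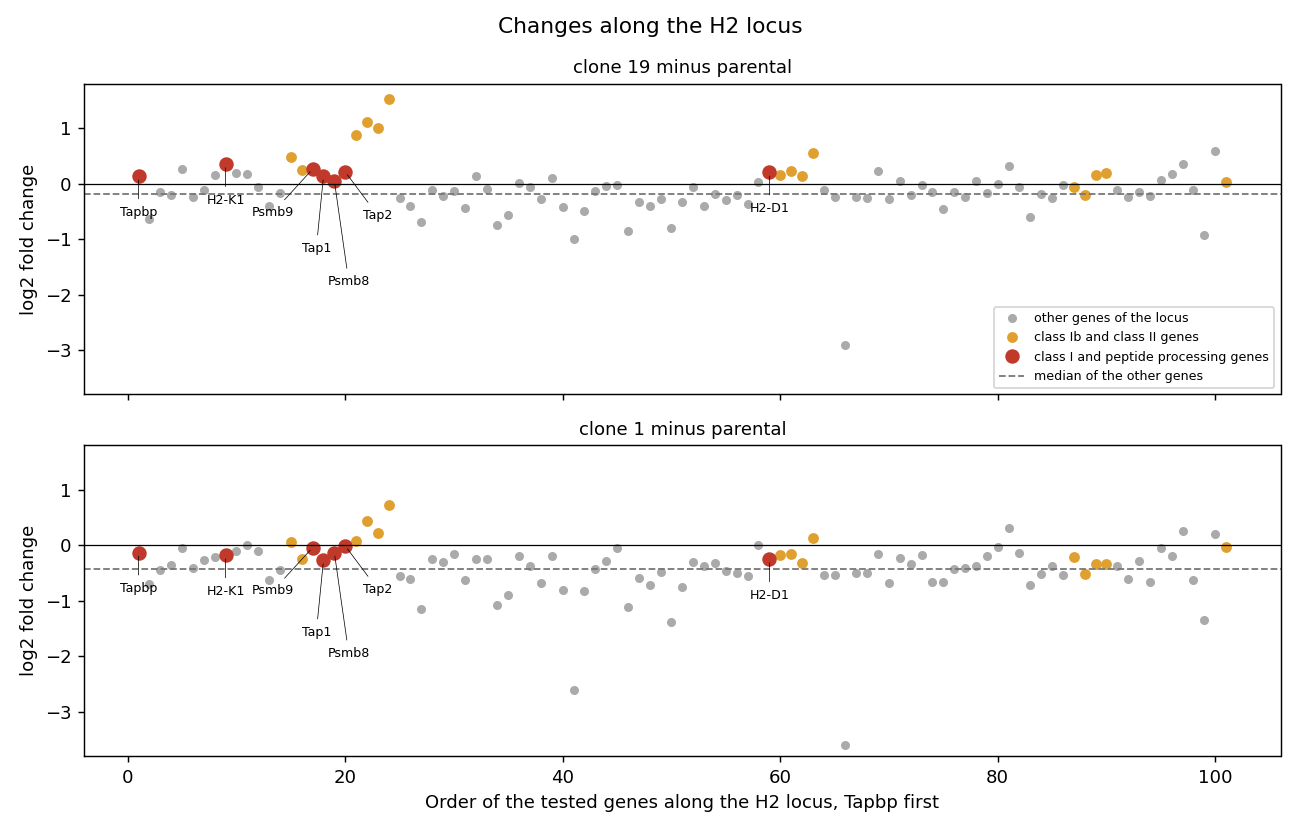
Log2 fold change (vertical axis) of the tested genes of the H2 locus in their order along it (horizontal axis, Tapbp first), for clone 19 minus parental above and clone 1 minus parental below. Red points are the 7 class I and peptide processing genes, ochre points class Ib and class II genes, grey points the other genes, whose median (dashed) is -0.18 in clone 19 and -0.42 in clone 1.

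The change of each gene was next read against its surroundings, by taking off, library by library, the median shift among its 50 closest tested genes, antigen presentation genes left aside. Around the 7 genes of the locus that median ran from -0.21 at H2-D1 to -0.10 at H2-K1 in clone 19, and from -0.45 at H2-D1 to -0.29 at H2-K1 in clone 1. Around B2m it was 0.00 and -0.01, around Psmb10 0.17 and 0.14, and around Nlrc5 0.20 and 0.20. With it subtracted, all 7 genes of the locus were called higher in both clones, with medians of 0.37 in clone 19 and 0.20 in clone 1. Over all tested genes this fit called 32.0% higher and 31.1% lower in clone 19 (63.1% in all), 33.7% higher and 32.6% lower in clone 1 (66.3%), and 16.4% higher and 16.7% lower between clones (33.1%). H2-D1 stood at 0.40 in clone 19 and 0.20 in clone 1 (adjusted p = 2.8e-09 and 9.5e-07, limma), and H2-K1 at 0.44 and 0.10 (adjusted p = 2.5e-09 and 3.6e-04, limma). Tap2 reached 0.37 and 0.36 (adjusted p = 7.1e-08 and 8.7e-08, limma). The heavy chains thus reversed their direction in clone 1, and kept a difference between the clones of 0.34 for H2-K1 and 0.20 for H2-D1 (adjusted p = 3.3e-07 and 7.4e-06, limma). For Tap2, Psmb8 and Psmb9 the difference between clones was no longer called (0.01, -0.02 and 0.08, adjusted p = 0.74, 0.28 and 0.061, limma). Outside the locus, B2m kept its change in clone 19 (0.17, adjusted p = 7.6e-06, limma), while that of Psmb10 shrank to 0.05 in clone 19 and 0.14 in clone 1 (adjusted p = 0.039 and 3.3e-05, limma). Nlrc5 turned round, to -0.08 in clone 19 and -0.19 in clone 1 (adjusted p = 0.052 and 3.8e-04, limma), so its direction depends on whether its neighbours are subtracted.

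**Figure D5:**
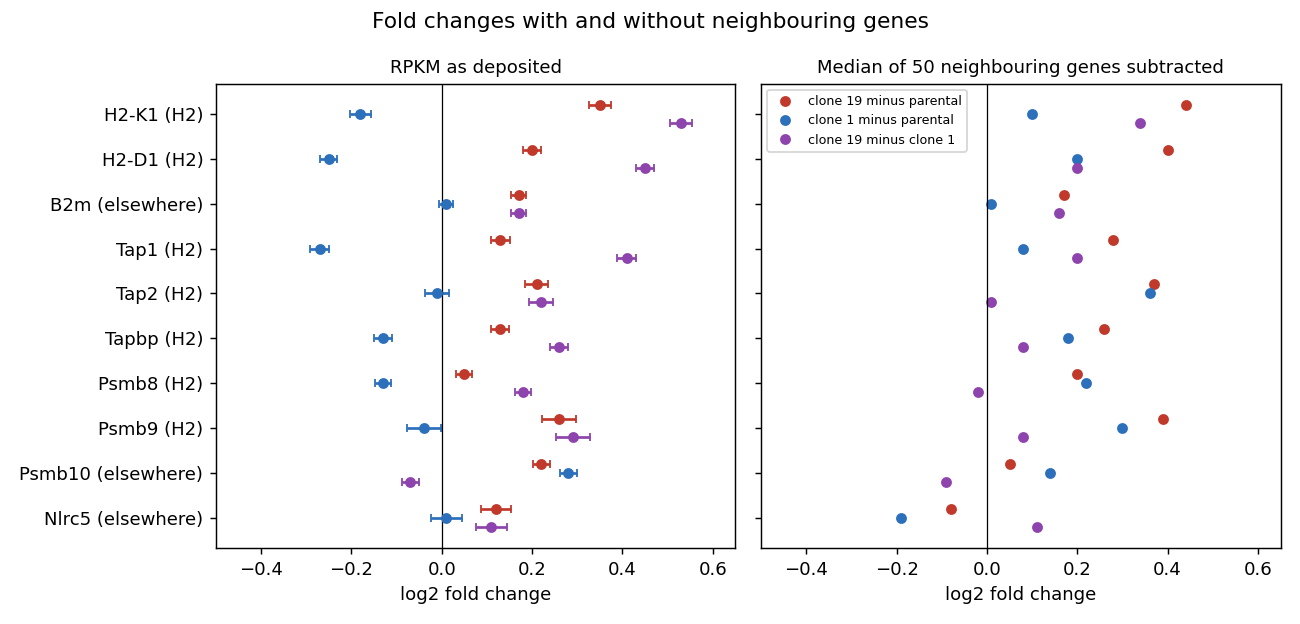
Log2 fold change (horizontal axis) of the 10 genes in each clone against parental cells and between the clones, from the deposited RPKM (left, bars are SE) and with the median of 50 neighbouring genes subtracted (right, no bars). The genes of the H2 locus in clone 1 lie at -0.27 to -0.01 on the left and at 0.08 to 0.36 on the right.

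Other genes of the class I pathway were read from lists. Of 15 tested class Ib and class I-like chains, relatives of the classical heavy chains, 7 rose in clone 19 and 4 fell, whereas clone 1 had 2 that rose and 10 that fell. These are 46.7% higher and 26.7% lower in clone 19, near the 36.7% and 32.3% of all tested genes, and 13.3% higher and 66.7% lower in clone 1, beside 39.8% and 32.6%. The 9 of them placed inside the H2 locus had medians of 0.16 in clone 19 and -0.21 in clone 1, near those of the 7 genes above. H2-Q7, a gene of the Qa-2 antigens, rose to 97.9 ± 2.27 RPKM in clone 19 and 72.8 ± 1.52 RPKM in clone 1, against 66.6 ± 2.10 RPKM in parental cells (SD, n = 3 each; 0.55 and 0.13, adjusted p = 1.7e-08 and 0.0016, limma). H2-Q9 had nearly the same values (on average 98.4 RPKM in clone 19, 73.1 RPKM in clone 1 and 66.9 RPKM in parental cells). They are near-identical copies and cannot be told apart here. Both are counted in the numbers and shares above, and they are the 2 that rose in clone 1. With neighbouring genes subtracted, 9 of the 15 chains were called higher and 3 lower in clone 19, and 6 and 6 in clone 1. Over all tested genes that fit called 32.0% higher and 31.1% lower in clone 19, and 33.7% and 32.6% in clone 1. H2-Q9, on a separate scaffold, had no neighbours to subtract. Outside the locus Fcgrt, the neonatal Fc receptor that also pairs with B2m, fell to 6.02 ± 0.389 RPKM in clone 19 and 5.66 ± 0.141 RPKM in clone 1, against 9.42 ± 0.229 RPKM in parental cells (-0.61 and -0.69, adjusted p = 6.4e-07 and 2.0e-07, limma). Mr1, which presents vitamin metabolites, fell by 0.62 and 0.33 on the log2 scale (adjusted p = 2.3e-05 and 0.0024, limma).

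Of 16 tested genes of peptide trimming and loading, each clone had 10 that rose and 3 that fell, or 62.5% higher, beside 36.7% of all tested genes in clone 19 and 39.8% in clone 1, with medians of 0.12 in clone 19 and 0.13 in clone 1. Canx (calnexin, which holds new heavy chains) rose to 235 ± 4.84 RPKM in clone 19 and 277 ± 2.94 RPKM in clone 1, against 167 ± 0.902 RPKM in parental cells (0.49 and 0.73, adjusted p = 1.8e-09 and 1.1e-10, limma). Ganab (glucosidase II, which trims the sugar that calnexin binds) rose by 0.40 and 0.45 (adjusted p = 5.2e-09 and 1.7e-09, limma), and Blmh (bleomycin hydrolase, a cytosolic peptidase) by 0.27 and 0.57 (adjusted p = 8.1e-06 and 1.6e-08, limma). Thop1, a cytosolic oligopeptidase that destroys peptides, fell by 0.36 and 0.42 (adjusted p = 1.3e-06 and 3.4e-07, limma), but with neighbouring genes subtracted it was no longer called (-0.04 in both clones, adjusted p = 0.31 and 0.27, limma). None of these 4 lies in the H2 locus.

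Among 8 activator and constitutive catalytic subunits of the proteasome, clone 19 had 4 higher (36.7% of all tested genes were) and clone 1 had 5 higher (39.8% of all were), and the 1 that fell in each was Psmb7. The activator subunits Psme1 and Psme2, which are induced by interferon gamma, rose by 0.37 and 0.48 in clone 19 (adjusted p = 3.9e-08 and 4.1e-07, limma) and by 0.35 and 0.34 in clone 1 (adjusted p = 6.1e-08 and 5.4e-06, limma). Psme3, the nuclear activator, rose by 0.18 and 0.24 (adjusted p = 1.0e-05 and 8.5e-07, limma). Of 11 core subunits without an immune counterpart, clone 19 had 5 higher and 1 lower (median 0.06), and clone 1 had 7 higher and 0 lower (median 0.12). The shares called higher were 45.5% in clone 19, near the 36.7% of all tested genes, and 63.6% in clone 1, beside 39.8%. With neighbouring genes subtracted they were 3 of 11 in clone 19 and 6 of 11 in clone 1, beside 32.0% and 33.7% of all tested genes. Psmb4 changed most, to 335 ± 7.68 RPKM in clone 19 and 328 ± 9.59 RPKM in clone 1, against 251 ± 4.51 RPKM in parental cells (SD, n = 3 each; 0.42 and 0.38, adjusted p = 7.0e-08 and 1.2e-07, limma). Its change was 0.08 in clone 19 and 0.13 in clone 1 once neighbouring genes were subtracted (adjusted p = 0.013 and 7.0e-04, limma). Psma5 rose by 0.31 and 0.36, a call that ended in both clones with neighbouring genes subtracted (adjusted p = 0.71 and 0.14, limma). Psma2 rose by 0.12 and 0.24, and Psmb3 stood at 0.06 in clone 19, not called, and rose by 0.25 in clone 1.

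Of 33 tested regulators of class I transcription, clone 19 had 15 higher and 11 lower (median 0.05), clone 1 had 14 higher and 11 lower (median 0.03), and 23 of the 33 did not pass the test between the clones. The shares, 45.5% higher and 33.3% lower in clone 19 and 42.4% and 33.3% in clone 1, were near those of all tested genes (36.7% and 32.3%, 39.8% and 32.6%). Between the clones 15.2% were higher in clone 19 and 15.2% lower, beside 18.5% and 24.5% of all tested genes. Rfx5, a subunit of the complex that binds the X box of MHC promoters, rose to 13.2 ± 0.0219 RPKM in clone 19 and 13.3 ± 0.0884 RPKM in clone 1, against 9.68 ± 0.278 RPKM in parental cells (0.43 and 0.44, adjusted p = 2.7e-07 and 2.0e-07, limma), and stood at 0.08 and 0.17 with neighbouring genes subtracted (adjusted p = 0.046 and 4.4e-04, limma). Irf8, an interferon regulatory factor, fell by 0.66 and 0.72 (adjusted p = 4.5e-08 and 2.1e-08, limma), Nfyb, a subunit of the factor that binds the Y box, by 0.56 and 0.62 (adjusted p = 4.8e-07 and 1.8e-07, limma), and Socs3, an inhibitor of cytokine signalling, by 0.48 and 0.56 (adjusted p = 1.8e-07 and 4.3e-08, limma). With neighbouring genes subtracted these 3 were still called lower in both clones, Nfyb with -0.26 and -0.33 and Irf8 in clone 1 with -1.13. Irf1, an interferon-induced transcription factor picked after its values were seen, rose by 0.27 in clone 19 and 0.33 in clone 1 (adjusted p = 4.1e-07 and 6.1e-08, limma), and turned to -0.08 and -0.11 with neighbouring genes subtracted (adjusted p = 0.0071 and 9.5e-04, limma). Of the class II presentation genes 7 were tested, and 7 rose in clone 19 (median 0.87), while 4 rose and 1 fell in clone 1 (median 0.23). In clone 19, 36.7% of all tested genes rose. The clone 1 counts are 57.1% higher and 14.3% lower, beside 39.8% and 32.6% of all tested genes. H2-Eb2 averaged 2.26 ± 0.137 RPKM in clone 19, 1.08 ± 0.179 RPKM in clone 1 and 0.452 ± 0.00411 RPKM in parental cells (SD, n = 3 each). It reached 1 RPKM in clone libraries alone, so it was tested only through the clones. Its log2 fold changes of 1.53 and 0.72 are thus a description only, though it is counted in the class II numbers above. The alpha chain gene H2-Aa rose by 1.11 and 0.43 (adjusted p = 2.1e-09 and 3.5e-06, limma). The beta chain gene H2-Eb1 rose to 105 ± 6.36 RPKM in clone 19 and 62.0 ± 1.98 RPKM in clone 1, against 52.6 ± 0.898 RPKM in parental cells (SD, n = 3 each; adjusted p = 3.0e-09 and 2.8e-04, limma). H2-Ab1, its counterpart in the other class II molecule, rose in clone 19 and was not called in clone 1 (0.87 and 0.07, adjusted p = 3.6e-09 and 0.083, limma). It averaged 132 ± 6.96 RPKM in clone 19, 75.7 ± 1.71 RPKM in clone 1 and 71.9 ± 1.90 RPKM in parental cells (SD, n = 3 each). With neighbouring genes subtracted, all 7 class II genes were called higher in both clones, H2-Ab1 in clone 1 at 0.46 (adjusted p = 1.8e-07, limma). Over all tested genes that fit called 32.0% higher in clone 19 and 33.7% in clone 1.

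The 10 genes did not share 1 pattern. Across the 9 libraries, which form 3 groups, Pearson's r of a gene with the mean standardized profile of the other 9 was 0.99 for H2-K1, 0.96 for Tap2, 0.95 for Psmb9, 0.94 for B2m and for Tapbp, 0.91 for H2-D1, 0.85 for Tap1, 0.82 for Psmb8 and 0.73 for Nlrc5, but -0.04 for Psmb10. The tested genes outside the set most like the mean profile of all 10 were Sox12 (r = 0.991), Id1 (0.989), Sfrp2 (0.989), Ccdc80 (0.989) and 1 ID that the tables used here do not name (0.988). Id1, an inhibitor of basic helix-loop-helix factors, averaged 74.7 ± 0.726 RPKM in clone 19, 49.7 ± 1.94 RPKM in clone 1 and 52.2 ± 0.869 RPKM in parental cells (SD, n = 3 each). None of the 4 named genes is on chromosome 17. Sfrp2 reached 1 RPKM in clone 19 alone, so it was tested only through that group.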

How the data were processed

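RNA-seq libraries of YAMC cells came from the TruSeq RNA kit, per the labels' protocols. The authors deposited 1 table of RPKM values for 28059 Entrez IDs and 9 libraries. GSNAP, DESeq and the build NCBIM37 are named, per the submitters' processing notes; annotation, counting rule and strand setting: not given in the sources used here. Columns were matched to libraries through the identifiers in the labels, and 24998 IDs were named by the RefSeq table of GRCm38, used for names and gene order, and 16 by GENCODE M21. Because the builds differ, only the RefSeq promoter windows carry coordinates.

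limma 3.58.1 in R 4.3.3 was fitted to log2(RPKM + 0.5) of the 12568 tested genes, with a mean-variance trend and all 9 libraries in 1 model of group means. P-values were adjusted by Benjamini-Hochberg over all tested genes in each contrast, with calls at an adjusted p under 0.05. Fold changes are on this scale, which understates those of low genes. P-values measure only the spread between libraries; the labels do not say that these were separate cultures. The fit was tested on simulated data. Ratios were compared by exact permutation in Python 3.11.15 with scipy 1.17.1.

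The H2 locus was taken from the first to the last of Tapbp and the genes named H2- in the chromosome 17 gene order; H2-Q8 and H2-Q9, placed on a separate scaffold in that table, were left out of it. Of 151 list entries 147 were matched. From each list up to 4 called genes with the largest change in either clone are named, with Psmb5, Psmb6, Psmb7 and Cdk8 always. The genes, lists and tests were chosen with earlier results of these data known. Alternatives covered pseudocounts, filters, scalings, weights, the trend, a replicate block, the groups fitted, a fold threshold, neighbouring genes and each library left out.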

Additional observations from a re-analysis of the deposited data

Results flagged for a closer look

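All 10 genes are listed here because the difference between the 2 clones under the same contrast with parental cells was itself called (clone 19 minus clone 1, log2 scale, limma over all tested genes). It was 0.53 for H2-K1, 0.45 for H2-D1, 0.41 for Tap1, 0.29 for Psmb9, 0.26 for Tapbp, 0.22 for Tap2, 0.18 for Psmb8, 0.17 for B2m and 0.11 for Nlrc5. Psmb10, at -0.07, was the only one lower in clone 19. Between the clones 43.0% of all tested genes were called in either direction. The part of the clones' isolation in these differences was not tested.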

How the results depend on the processing

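Each clone is a single isolate and parental libraries are shared by both contrasts. With at least 1.5-fold required, 0 of the 10 genes were called in any comparison, and of the other H2 locus genes 0 were higher and 8 lower in clone 19, 0 higher and 25 lower in clone 1, and 3 higher in clone 19 than in clone 1. With neighbouring genes subtracted, Nlrc5 turned to -0.08 in clone 19 and -0.19 in clone 1, Psmb8 to -0.02 between clones, and in clone 1 H2-K1 turned to 0.10, H2-D1 to 0.20, Tap1 to 0.08, Tap2 to 0.36, Tapbp to 0.18, Psmb8 to 0.22 and Psmb9 to 0.30, giving 8 of the 10 higher and 1 lower there. By construction this removes shared local shifts, and the other H2 genes then split 24 higher and 22 lower in clone 19, 27 and 27 in clone 1, and 16 and 12 between clones. Quantile normalization, which by construction equalizes the highest gene, set B2m to 0.00 in clone 19 and -0.19 in clone 1, and 8 of the 10 were called lower in clone 1. With no mean-variance trend 0 of the 10 were lower in clone 19 than in clone 1. The other H2 genes called higher in clone 1 numbered 1 with no filter, a filter at 3 RPKM, median-ratio scaling, no trend or the replicate block. With each library left out in turn they numbered 1 to 3, those higher in clone 19 numbered 7 to 11 (7 without parental replicate 1), and the genes lower in clone 19 than in clone 1 numbered 0 to 1 (0 without clone 19 replicate 3). Where no cause is given, the cause was not tested. Same-numbered libraries correlated at -0.035 to 0.123 and share only a number. With a replicate block, 8574 genes were called in clone 19, 9037 in clone 1 and 5169 between clones, against 8675, 9096 and 5404 without it. The block changed no call of the 10 genes. Leaving out the genes named H2-, chosen after seeing the data, left 10 higher and 48 lower in clone 19, 2 and 67 in clone 1, and 62 and 0 between clones.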
